A study of Mus musculus with 7 samples.

Results

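The 10 genes described here encode the neuronal intermediate filament proteins Nefl, Nefm, Nefh and Ina, the microtubule-associated proteins Mapt (tau), Map1b, Map2 and Dcx (doublecortin), and the tubulin-binding stathmins Stmn1 and Stmn2. They were chosen by symbol, each matched 1 row, and together they are 10 of the 56941 rows of a gene expression table made by RNA sequencing of mouse cerebral cortex at postnatal day 7. The table holds 4 wild-type (WT) samples and 3 samples labelled Hnrnph2 P213L. Hnrnph2 lies on the X chromosome and encodes an RNA-binding protein that acts in splicing. The labels give the genotype, the tissue (fresh cortex) and the age, and the series as a whole addresses myelination. The sources used here do not give strain, sex, copies of the allele or whether each sample was its own animal, so that all p-values speak only of the spread among these 7 samples. Means carry ± SD over 4 WT and 3 P213L samples, unless a WT library is left out, and fold changes carry ± SE from limma, a linear model fitted to all genes. Levels are in transcripts per 1000000 transcripts (TPM), which divides by gene length and can be compared between genes.

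Neurofilaments fill the axon and set its calibre. They are built from a light (Nefl), a medium (Nefm) and a heavy (Nefh) subunit, together with alpha-internexin (Ina), which is known to appear earlier in development than the heavy subunit. Microtubules run beside them: tau and Map1b are known mainly from axons, Map2 from dendrites, and doublecortin from migrating and newly formed neurons. Stathmins bind free tubulin and favour microtubule disassembly. Stmn1 is also abundant in dividing cells, while Stmn2 is known as a neuronal growth cone protein.

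Library facts that touch the results below are these. WT replicate 3 correlated with the other 6 libraries at 0.943 to 0.949 over 17582 tested genes (mean of at least 1 TPM), against 0.981 to 0.992 among those 6. Its depth, estimated from the smallest values, was 57.2 M counted units (M, 1000000 units), against 66.4 to 79.4 M. In every library Nefh rested on 1594 to 2080 such units and each of the other 9 genes on at least 9572. Malat1, a nuclear RNA, stood at 89.9 TPM in WT replicate 3, at 290.6 to 385 TPM in the other WT samples and at 488 to 569 TPM in P213L. WT replicate 2 held 1216 TPM of the choroid plexus gene Ttr. Hnrnph2 itself averaged 87.0 ± 5.66 TPM (WT) and 82.0 ± 5.39 TPM (P213L). A change of the protein sequence need not alter this level, so it does not check the labels.

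The genes other than Map1b and Dcx form 3 sequence families. Windows of 2 of these families are shown here because reads from near-identical stretches could be split between relatives. Sequences are coding sequences of the annotation GENCODE vM21 (mouse build GRCm38, mm10), 5′ to 3′ on the coding strand, and capitals mark bases identical in both genes. The stathmins were the closest pair, with 79 of 90 bases identical in the window below and an unbroken run of 43 bases.
Stmn1: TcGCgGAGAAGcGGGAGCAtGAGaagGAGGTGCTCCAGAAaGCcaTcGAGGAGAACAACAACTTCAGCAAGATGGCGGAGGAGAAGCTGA
Stmn2: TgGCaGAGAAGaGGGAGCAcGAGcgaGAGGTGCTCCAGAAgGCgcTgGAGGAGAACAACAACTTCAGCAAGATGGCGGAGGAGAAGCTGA
Tau and Map2 are relatives through their microtubule-binding repeats. Their closest 90-base window, from the end of that region, held 68 identical bases (capitals), and the longest unbroken run anywhere was 11 bases.
Mapt: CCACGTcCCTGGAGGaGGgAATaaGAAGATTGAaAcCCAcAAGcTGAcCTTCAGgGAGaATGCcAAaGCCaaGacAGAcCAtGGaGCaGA
Map2: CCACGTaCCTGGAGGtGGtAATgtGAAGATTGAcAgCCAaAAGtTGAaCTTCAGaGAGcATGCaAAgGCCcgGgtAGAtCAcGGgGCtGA
No stretch of 50 bases was shared, in the sense direction, between the transcripts of any 2 of the 10 genes. Outside the group, 18.9% of the 50-base stretches of Stmn1 also occurred in other genes, chiefly Gm11223, and for the other 9 genes the share was at most 0.875%. Opposite strands overlapped as well: exons of a long annotated Nefm transcript cover 1108 exonic bases of Nefl, 32.8% of its exons, and Ina shares 456 bases with Nt5c2. The libraries were strand-specific per the labels' protocols, but the sources used here do not state the strand setting of the counting, so reads in these overlaps cannot be assigned with certainty.

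The levels of the 10 genes differed widely. Stmn1 was among the 20 to 32 most abundant of the tested genes in every library, and Nefh ranked between 6202 and 7073. By WT mean the order was Stmn1, Stmn2, Mapt, Map1b, Map2, Ina, Nefl, Dcx, Nefm and Nefh. Stmn1 exceeded Stmn2, and Nefm exceeded Nefh, with no overlap between the ranges over 7 samples. Every other pair of neighbours in that order overlapped in range, and Map2 exceeded Ina in only 4 of 7 samples. The 10 genes together made up 0.572 to 0.589% of all TPM in 3 WT samples, 0.664% in WT replicate 3 and 0.590 to 0.618% in P213L.

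**Figure D1:**
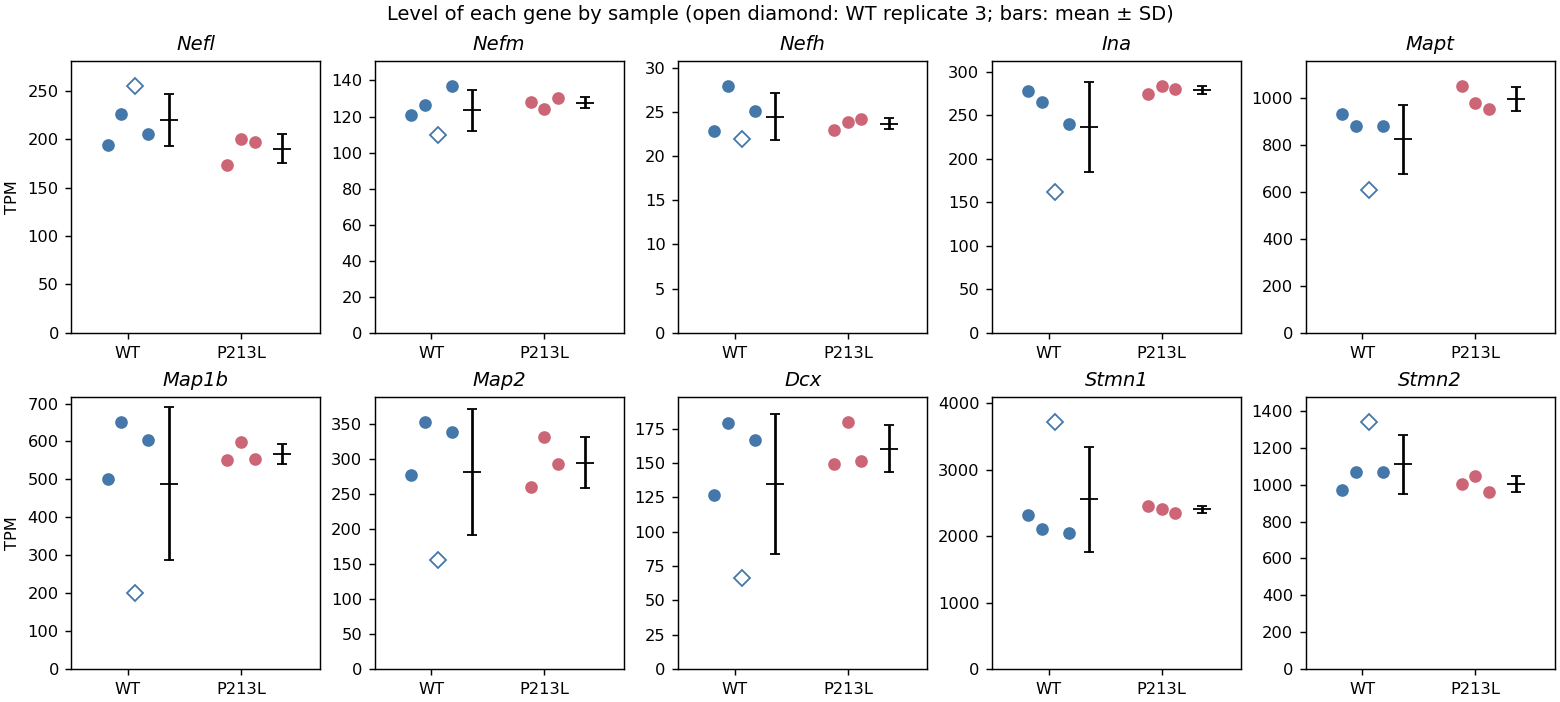
TPM of each gene (vertical axis, starting at 0) in the 4 WT and 3 P213L samples, 1 point per sample, with mean ± SD beside each group and WT replicate 3 as an open diamond. For Mapt all 3 P213L points, 955 to 1054 TPM, lie above all 4 WT points, 608 to 933 TPM, and the groups overlap for the other 9 genes.

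None of the 10 genes passed adjustment over all tested genes (limma on log2(TPM + 0.5), Benjamini-Hochberg, two-sided; lowest adjusted p = 0.827), and 0 of the 17582 tested genes did (0%). At an unadjusted p under 0.05 there were also 0 of 10, where 657 of all tested genes (3.74%; 2.36% higher and 1.38% lower in P213L) reached that level. Of those 657 genes 415 were higher, against 371 of 715 with median-of-ratios scaling, 400 of 810 with quantile normalization and 332 of 623 after removal of the mitochondrial genes. WT and P213L samples were fully separate for 1 of the 10, Mapt, where 8.69% of tested genes were of that kind (5.94% higher and 2.75% lower in P213L). The fold changes (P213L over WT) ranged from -0.20 to 0.35 on the log2 scale with a median of 0.09, beside 0.07 over all tested genes. In this bulk tissue, a difference in the number of neurons and a difference in RNA per neuron could not be told apart.

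Nefl (chromosome 14, 68083863 to 68089095, plus strand), the core subunit without which neurofilaments do not assemble, stood at 194, 226, 255 and 205 TPM in WT replicates 1 to 4 and at 173, 200.1 and 197 TPM in P213L. The P213L samples lay low in the range, with P213L replicate 1 lowest and WT replicate 3 highest, and the groups overlapped. Its mean was 220.0 ± 26.9 TPM (WT) and 190.2 ± 14.6 TPM (P213L). Limma gave a log2 fold change of -0.20 ± 0.12 (SE; adjusted p = 0.827; 95% interval -0.49 to 0.08), and -0.13 ± 0.08 without WT replicate 3 (limma adjusted p = 0.642).

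Nefm (chromosome 14, 68082590 to 68124846, minus strand), the medium subunit with a long phosphorylated tail, lay in all 7 samples between 110.0 and 137 TPM. The WT samples held 121, 126, 110.0 and 137 TPM and the P213L samples 128, 124 and 130.25 TPM, so that the P213L values fell inside the WT range. Its log2 fold change of 0.05 ± 0.10 (SE; limma adjusted p = 0.882) had a 95% interval of -0.19 to 0.29, and its sign turned to -0.03 with median-of-ratios scaling, which sets each sample by its median ratio to the mean sample. Nefh (chromosome 11, 4938754 to 4948064, minus strand), the heavy subunit of mature thick axons, was the scarcest of the 10 at 22.8, 28.0, 21.9 and 25.1 TPM (WT) and 22.9, 23.9 and 24.1 TPM (P213L). Here too the P213L samples sat within the WT range, and limma gave a log2 fold change of -0.04 ± 0.12 (SE; adjusted p = 0.914; 95% interval -0.31 to 0.23).

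Ina (chromosome 19, 47014698 to 47025327, plus strand), the subunit of early axons, measured 278, 265, 162 and 240.4 TPM (WT replicates 1 to 4) and 275, 284 and 279.7 TPM (P213L). The P213L values were tightly grouped at the upper end, and WT replicate 3 was far below the rest. The mean was 236 ± 51.9 TPM (WT) and 279 ± 4.54 TPM (P213L), and 261 ± 19.1 TPM in WT without WT replicate 3. With it the log2 fold change was 0.27 ± 0.19, and without it 0.10 ± 0.07 (SE; limma adjusted p = 0.827 and 0.653).

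Mapt (chromosome 11, 104231390 to 104332090, plus strand) encodes tau, which binds along axonal microtubules. It measured 933, 883, 608 and 881 TPM (WT replicates 1 to 4) and 1054, 982 and 955 TPM (P213L). Every P213L sample was above every WT sample, and WT replicate 3 was far lower than the other WT samples. The mean was 826 ± 147 TPM (WT) and 997 ± 51.3 TPM (P213L). Its log2 fold change was 0.29 ± 0.16 (SE; 95% interval -0.08 to 0.66; limma adjusted p = 0.827; unadjusted p = 0.106; exact permutation p = 0.0571, two-sided, where 0.0286 is the smallest that 35 splits allow). Without WT replicate 3 it was 0.15 ± 0.06 (SE; limma unadjusted p = 0.0474, adjusted p = 0.566). The exact permutation p was then 0.1, the smallest that a two-sided test over 20 splits into 3 and 3 allows. With median-of-ratios scaling as well, the lowest unadjusted p among the 10 genes was 0.0523 in limma. The table gives 1 value per gene, so the tau splice forms with different numbers of repeats were not measured apart.

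Map1b (chromosome 13, 99421446 to 99516540, minus strand), a microtubule protein of growing axons, measured 500.2, 652, 200.3 and 603 TPM (WT replicates 1 to 4) and 551, 598 and 554 TPM (P213L). The P213L samples lay among the WT samples once WT replicate 3 was set aside. Its log2 fold change of 0.35 ± 0.38 (SE; limma adjusted p = 0.827) had the widest 95% interval of the 10, -0.53 to 1.23, and it was -0.04 ± 0.10 without WT replicate 3. Map2 (chromosome 1, 66175273 to 66442583, plus strand), the microtubule protein of dendrites, measured 277, 353, 156 and 338 TPM (WT replicates 1 to 4) and 260.1, 332 and 292 TPM (P213L). P213L replicate 1 and WT replicate 1 were the lowest apart from WT replicate 3, and the groups overlapped. Limma gave a log2 fold change of 0.13 ± 0.28 (SE; adjusted p = 0.886), and -0.13 ± 0.12 without WT replicate 3.

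Dcx (chromosome X, 143855842 to 143933311, minus strand), which steadies microtubules in migrating neurons, measured 127, 179, 66.0 and 167 TPM (WT replicates 1 to 4) and 149.5, 180.0 and 152 TPM (P213L). The P213L values lay inside the WT range but for P213L replicate 2, which was just above WT replicate 2. Limma put its log2 fold change at 0.34 ± 0.32 (SE; adjusted p = 0.827), and 0.04 ± 0.14 without WT replicate 3, with a 95% interval of -0.28 to 0.36.

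Stmn1 (chromosome 4, 134468320 to 134473843, plus strand) measured 2325, 2113, 3723 and 2056 TPM (WT replicates 1 to 4) and 2451, 2412 and 2354 TPM (P213L). WT replicate 3 was highest of all 7, and the 3 P213L samples lay above the other 3 WT samples. With all samples limma gave a log2 fold change of -0.04 ± 0.20 (SE; adjusted p = 0.950), and without WT replicate 3 it was 0.15 ± 0.07 (SE; limma adjusted p = 0.580). Gm11223, the row that shares sequence with Stmn1 and was named after its values were seen, stood at 73.3 to 87.1 TPM in those 3 WT samples, 143 TPM in WT replicate 3 and 114 to 121 TPM in P213L.

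Stmn2 (chromosome 3, 8509360 to 8561606, plus strand) measured 970, 1067, 1341 and 1068 TPM (WT replicates 1 to 4) and 1003, 1045 and 962 TPM (P213L). As for Stmn1 the highest value was in WT replicate 3, and the groups overlapped. Limma gave a log2 fold change of -0.14 ± 0.12 (SE; adjusted p = 0.827; 95% interval -0.43 to 0.15), and -0.04 ± 0.07 without WT replicate 3.

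**Figure D2:**
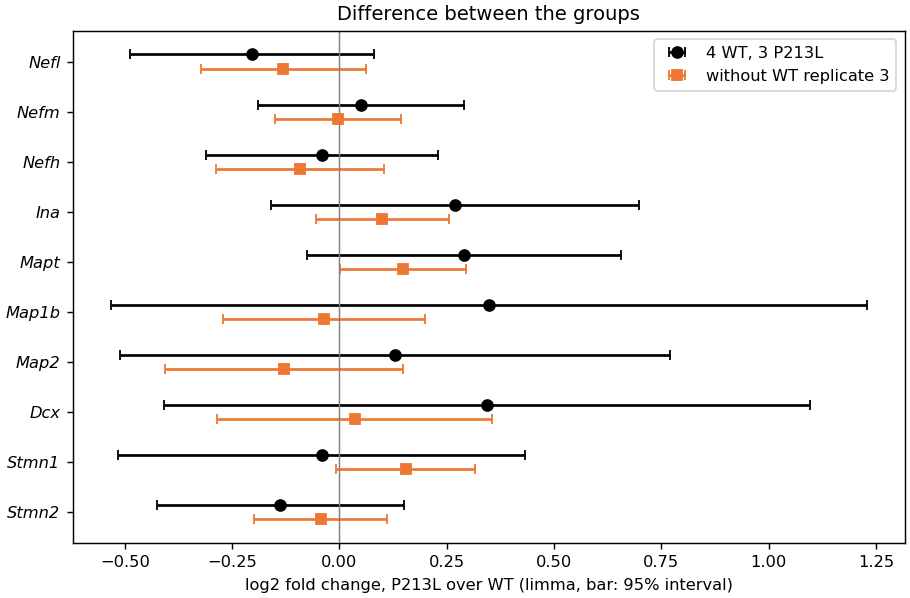
Log2 fold change of each gene, P213L over WT (horizontal axis), with its 95% interval from limma, for all 7 samples (black circles) and without WT replicate 3 (orange squares). All 10 black intervals include 0, and without WT replicate 3 the interval of Mapt, from 0.002 to 0.29 before any adjustment, is the only one that does not (1 of 10 at an unadjusted p under 0.05 in limma, beside 8.69% of all tested genes).

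The results changed with 1 library and with the weighting of libraries. Without WT replicate 3 the log2 fold changes ran from -0.13 to 0.15, 4 of 10 were positive instead of 6, and the groups did not overlap for Mapt and Stmn1 (2 of 10, beside 14.2% of tested genes, or 7.33% counting only those higher in P213L). Nefm, Map1b, Map2 and Stmn1 changed sign. Without WT replicate 1 the groups did not overlap for Nefl, Ina, Mapt and Stmn2, 4 of the 10 genes, where 25% of tested genes did not. Without P213L replicate 1 they did not for Ina and Mapt (13.1% of tested genes), and without WT replicate 2, WT replicate 4, P213L replicate 2 or P213L replicate 3 only for Mapt (11.9, 11.6, 16 and 12.6%). When limma estimated a weight for each sample, Ina (log2 fold change 0.18) and Stmn1 (0.18) passed with limma adjusted p = 0.0311 and 0.0350, in a fit that called 22.6% of all tested genes. That fit gave WT replicate 4 and P213L replicate 3 weights of 5.24 and 6.90 and WT replicate 3 a weight of 0.0432, so that it rested mainly on 1 sample per group. Over the P213L samples the coefficient of variation of the 10 genes ran from 1.63 to 12.2%, and over the WT samples from 9.14 to 41.4%, or 3.27 to 17.4% without WT replicate 3.

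Ratios between 2 of the genes within a sample do not depend on a scaling factor common to all genes of that sample. Quantile normalization is not of that kind and can change them. With it the Dcx to Mapt difference between the groups turned from 0.06 to -0.066 on the log2 scale. The balance of the filament subunits was 31.5 to 34.99% Nefl, 19.6 to 22.6% Nefm, 3.71 to 4.33% Nefh and 39.6 to 45.2% Ina in the 3 WT samples other than WT replicate 3, as shares of their summed TPM. P213L held 28.9 to 31.7% Nefl and 44.3 to 45.8% Ina. In WT replicate 3 Nefl took 46.4% and Ina 29.5%.

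The ratio of Ina to Nefl, the alpha-internexin of early axons against the light subunit, was 1.43, 1.18, 0.636 and 1.17 in WT and 1.58, 1.42 and 1.42 in P213L. WT replicate 1 lay among the P213L samples and the other WT samples below them. The difference was 0.48 on the log2 scale (exact permutation p = 0.114, two-sided; adjusted p = 0.514 over the 6 ratios), and 0.23 without WT replicate 3. Map1b to Map2, an axonal against a dendritic protein, was 1.81, 1.85, 1.28 and 1.78 in WT and 2.12, 1.80 and 1.89 in P213L, a log2 difference of 0.22 (exact permutation p = 0.257), and of 0.095 without WT replicate 3. The groups overlapped, as they did for all 6 ratios. Stmn1 to Stmn2 was 1.92 to 2.78 in WT and 2.31 to 2.45 in P213L, Dcx to Mapt 0.108 to 0.203 and 0.142 to 0.183, Nefm to Nefl 0.431 to 0.668 and 0.621 to 0.739, and Nefh to Nefl 0.0859 to 0.124 and 0.119 to 0.132. For these 4 the log2 differences were 0.10, 0.06, 0.26 and 0.16, which became 0.20, -0.11, 0.13 and 0.038 without WT replicate 3. With all samples the exact permutation adjusted p over the 6 ratios was at least 0.514 for each. None of the 6 ratios passed adjustment. A single ratio could not have passed, because the smallest exact permutation p over 35 splits, 0.0286, exceeds 0.05 once adjusted over 6 ratios. Several ratios would have had to reach that smallest p together, so the test cannot exclude a difference in 1 ratio.

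**Figure D3:**
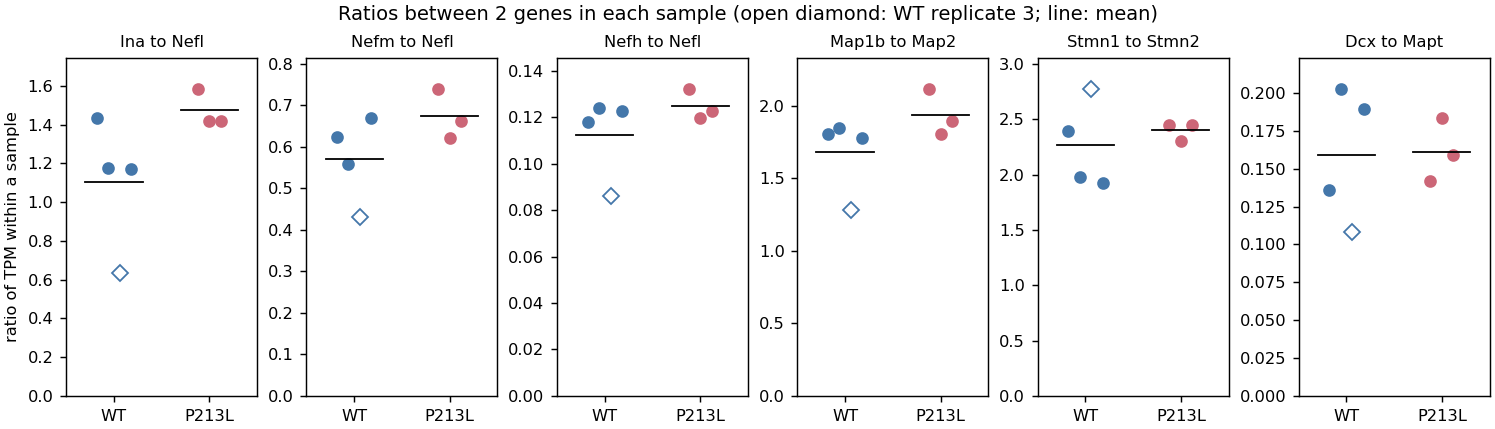
Ratio of the TPM of 2 genes within each sample (vertical axes, starting at 0), 1 point per sample, with the group mean as a line and WT replicate 3 as an open diamond. WT replicate 3 has the lowest value of all samples for each ratio except Stmn1 to Stmn2, where it has the highest, 2.78.

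The genes did not move alike in WT replicate 3, and the longest of them were lowest there, without a strict order by length. Relative to the mean of the other 3 WT samples, Stmn1 stood at 1.72 times, Stmn2 at 1.296 times and Nefl at 1.22 times, while Map2 stood at 0.483, Dcx at 0.419 and Map1b at 0.342 times. Nefh and Nefm were near 0.866 and 0.859, Mapt at 0.677 and Ina at 0.621 times. The 3 genes with the most exonic sequence in the annotation (Map2 16449, Map1b 15846 and Dcx 12647 bases) were the 3 lowest, and Stmn1, the shortest at 1922 bases, was the highest. Across the 10 genes the correlation of log10 length with the log2 deviation was -0.84, a description of genes that share 1 library. Sizeable correlations were not particular to WT replicate 3. Each other library was set against the rest of its group, without WT replicate 3. There the correlation was -0.75, 0.56 and 0.72 in WT replicates 1, 2 and 4. In P213L replicates 1 to 3 it was -0.38, 0.62 and -0.42. The deviations in those libraries were smaller, from -0.45 to 0.29. Over 820 tested genes longer than 12000 bases the median log2 deviation of WT replicate 3 was -0.93, and over 3976 genes of up to 2000 bases it was 0.10. The 3 long genes, at -1.05 to -1.55, were therefore somewhat below the median of genes as long, and Stmn1 at 0.78 was above that of short genes. Markers of neurons did not move alike in that library. The sum of 12 pan-neuronal genes was 5742 TPM against 6369 to 6961 TPM in the other WT samples, Rbfox3, a marker of mature neuronal nuclei, was at 100.3 against 197 to 209 TPM, and Snap25, a synaptic protein, at 388 against 318 to 387 TPM. The erythroid gene Hbb-bs was at 434 against 202 to 233 TPM. Their part in the result was not tested.

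**Figure D4:**
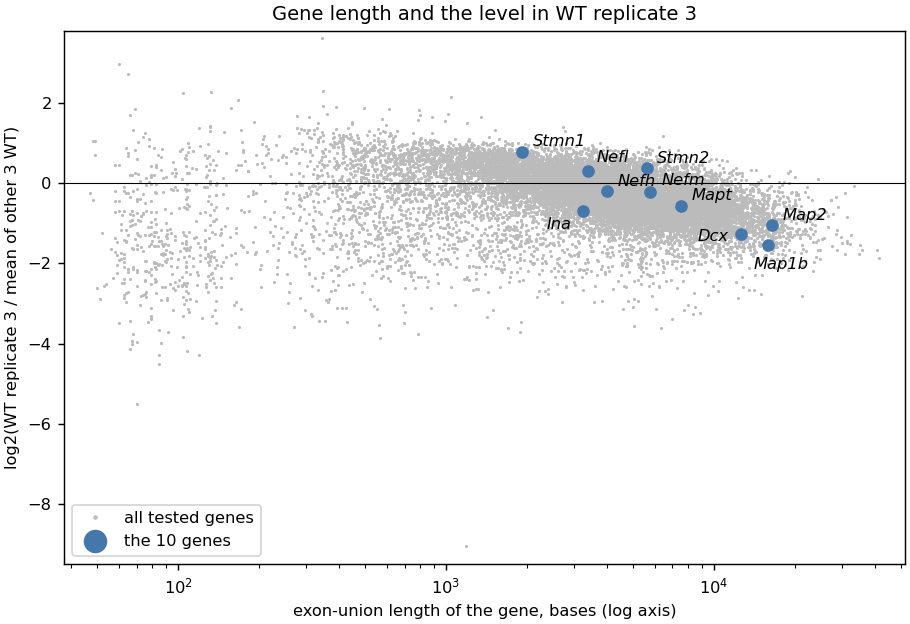
Log2 of the level in WT replicate 3 over the mean of the other 3 WT samples (vertical axis) against exonic length in bases (log axis), for all tested genes (grey) and the 10 genes (blue). Stmn1 is highest of the 10 at 0.78 and shortest, and Dcx, Map2 and Map1b are lowest and longest.

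In WT replicate 1, set against WT replicates 2 and 4, Dcx was lowest of the 10 genes at -0.45 on the log2 scale, and in P213L replicate 1, set against the other P213L samples, Map2 was lowest at -0.26. Map1b, Map2 and Dcx varied together over samples. Their pairwise correlations of log2 values were 0.97 to 0.99 over 7 samples and 0.81 to 0.95 over the 6 without WT replicate 3, in samples that also share their depth and scaling. Stmn1 and Mapt had a correlation of -0.77 over 7 samples and 0.91 over 6, so that its sign rested on WT replicate 3.

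Genes with the profile most like that of a member were looked for among 10108 others with a mean of at least 10 TPM. Closest to Nefl over the 7 samples were Abhd17b, Siah1a and Serpine2 (correlation of log2 values 0.993, 0.990 and 0.989), and closest to Nefh were Ets2, Cpsf2 and Suclg2 (0.975, 0.968 and 0.964). For Map2 they were Srek1, Sox5 and Ubn2 (0.998 for each). For Dcx they were Pik3r1, Cep170 and Mtrex (0.997 to 0.999), and for Stmn2 Med21, Nol7 and Dnaja2 (0.993 to 0.997). These 15 genes were the highest of 10108 in so few samples, and such values are read as a description only. Without WT replicate 3 the 15 correlations were between 0.956 and 0.991.

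Related genes of the filament and microtubule system were read from 8 lists. Of their 138 tested genes 0 passed adjustment in limma, 2 reached an unadjusted p under 0.05 (1.45%, beside 3.74% of all tested genes), and the groups did not overlap for 7 (5.07%, beside 8.69%). Higher values in P213L were found for 108 of the 138 genes (78.3%, beside 63.4% of all tested genes). Without WT replicate 3 they were found for 67 of the 138 (48.6%). The share over all tested genes was not counted in that setting. The median log2 fold change over all tested genes was then -0.0016, against 0.07 with all samples.

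**Figure D5:**
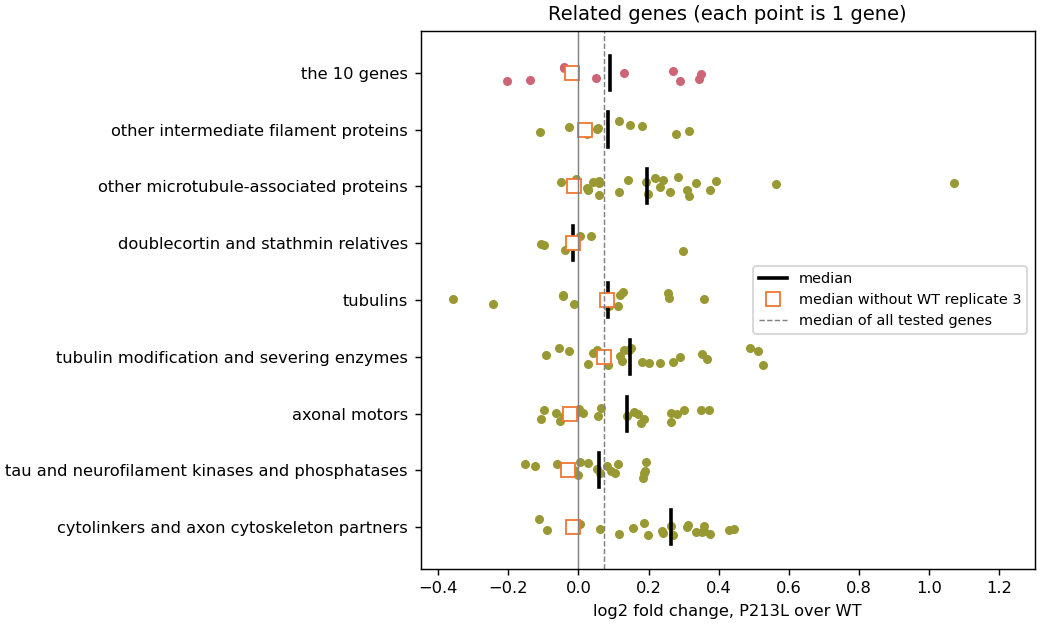
Log2 fold change, P213L over WT (horizontal axis), of every tested gene in the set of 10 and in 8 lists of related genes, with the list median (black line), the median without WT replicate 3 (open square) and the median of all tested genes (dashed). Medians run from -0.02 to 0.26 with all samples, and from -0.03 to 0.08 without WT replicate 3.

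Tubulins, the subunits of the microtubule itself, showed 9 of 14 genes higher and 5 lower, with a median log2 fold change of 0.08 (0.08 also without WT replicate 3). Tuba4a, an alpha-tubulin of mature neurons, stood at 227 to 245 TPM (WT) and 186 to 207 TPM (P213L), with no overlap (log2 fold change -0.24 ± 0.09, SE; limma adjusted p = 0.827). Tuba8 stood at 2.56 to 3.54 TPM (WT) and 1.96 to 2.51 TPM (P213L), also without overlap. Tubb2b, a beta-tubulin of the developing brain, stood at 3016 ± 286 TPM (WT) and 3604 ± 323 TPM (P213L), and Tubb6 at 14.3 ± 3.12 and 18.1 ± 1.12 TPM. Their log2 fold changes were 0.26 ± 0.11 and 0.36 ± 0.19, and 0.23 and 0.20 without WT replicate 3 (SE; limma adjusted p = 0.827 for both with all samples). Tuba1a and Tubb3, abundant in neurons, had -0.04 ± 0.18 and 0.11 ± 0.12, and 0.12 ± 0.08 and 0.15 ± 0.11 without that library (SE). Tubulins are close in sequence, so reads may be split between them.

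Of the other microtubule-associated proteins 23 of 26 were higher and 3 lower, with a median of 0.19, which was -0.01 without WT replicate 3. Mid1, a microtubule-bound ubiquitin ligase, stood at 0.376 to 1.81 TPM (WT) and 2.65 to 2.89 TPM (P213L), with no overlap and a log2 fold change of 1.07 ± 0.35 (SE; limma adjusted p = 0.827; 0.79 ± 0.23 without WT replicate 3). Camsap3, which caps the minus ends of microtubules, stood at 40.4 ± 15.8 TPM (WT) and 55.6 ± 2.15 TPM (P213L), with 18.1 TPM in WT replicate 3, and its log2 fold change of 0.56 ± 0.34 was 0.22 ± 0.10 without that library (SE). Map1a, the adult relative of Map1b, followed it in WT replicate 3, at 81.3 TPM against 289 TPM at most in WT, and had a log2 fold change of 0.31 ± 0.43 with that sample and -0.14 ± 0.05 without it (SE). Map6d1 and Map10 had log2 fold changes of -0.01 and -0.05, and of -0.16 and -0.14 without it.

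The relatives of doublecortin and the stathmins split evenly, with 3 of 6 higher and a median of -0.02. Stmn3, a neuronal stathmin, stood at 4319 TPM in WT replicate 3 and between 2363 and 2766 TPM in the rest. Its log2 fold change was -0.11 ± 0.21 (SE), and 0.09 ± 0.07 without that library. Dclk1, a kinase with doublecortin domains, stood at 274 ± 77.0 TPM (WT) and 271 ± 14.8 TPM (P213L), and Dclk2 at 59.7 ± 16.5 and 70.9 ± 1.11 TPM. Dclk1 was at 162.9 TPM and Dclk2 at 35.04 TPM in WT replicate 3. The log2 fold change of Dclk1 was 0.04 ± 0.24 with that library and -0.20 ± 0.08 without it (SE; limma unadjusted p = 0.0418, adjusted p = 0.549), and that of Dclk2 was 0.30 ± 0.24 and 0.06 ± 0.05. Dcdc2a, another doublecortin-domain gene, had -0.10 ± 0.13 (SE), also -0.10 without that library.

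Of the other intermediate filament proteins 8 of 10 were higher, none with an unadjusted p under 0.05 in limma (median 0.09, and 0.02 without WT replicate 3). Nes, the filament of neural progenitors, stood at 15.9 to 22.8 TPM (WT) and 22.5 to 27.4 TPM (P213L) (log2 fold change 0.31 ± 0.15, SE; limma adjusted p = 0.827), and the nuclear lamin Lmnb2 at 33.1 ± 6.38 and 39.8 ± 1.15 TPM. Without WT replicate 3 their log2 fold changes were 0.22 and 0.17, against 0.31 and 0.28 with it. Vim and Gfap, filaments of progenitors and astrocytes, had log2 fold changes of 0.05 ± 0.14 and 0.05 ± 0.12 (SE), which were 0.15 and -0.02 without that library. Prph, the peripherin of peripheral neurons, had -0.11 ± 0.18 and Lmna -0.03 ± 0.12 (SE), which were 0.02 and 0.0088 without it.

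Enzymes that modify or sever microtubules were higher for 19 of 22 genes, with a median of 0.15 (0.07 without WT replicate 3). Vash2, which removes the final tyrosine of alpha-tubulin, stood at 18.0 to 30.4 TPM (WT) and 31.4 to 34.7 TPM (P213L). Atat1, which acetylates alpha-tubulin, stood at 83.6 to 91.1 TPM (WT) and 92.7 to 111 TPM (P213L). The groups did not overlap for either, and both had an adjusted p of 0.827 in limma. The log2 fold change of Vash2 was 0.37 ± 0.19, and 0.20 ± 0.07 without WT replicate 3, and that of Atat1 was 0.20 ± 0.10 and 0.22 ± 0.08 (SE). Ttll7, which adds glutamate chains to tubulin, and the severing enzyme Fign had log2 fold changes of -0.09 ± 0.18 and -0.06 ± 0.18 (SE), and of -0.22 and -0.12 without that library.

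Motors of axonal transport were higher for 15 of 21 genes (median 0.14, and -0.02 without WT replicate 3). Klc2, a kinesin light chain, and the dynactin subunit Dctn1 had log2 fold changes of 0.17 ± 0.13 and 0.18 ± 0.16, and Pafah1b1 (Lis1), a dynein regulator that acts with doublecortin in migration, had -0.11 ± 0.13 (SE). Kif2a, a kinesin that shortens microtubules, had -0.10 ± 0.13 (SE). Without WT replicate 3 these were 0.08 for Klc2, 0.04 for Dctn1, -0.19 for Pafah1b1 and -0.12 for Kif2a. Among the kinases and phosphatases of tau and neurofilaments 12 of 18 were higher (median 0.06), and 5 of 18 without WT replicate 3 (median -0.03). Ppp2ca, the catalytic subunit of the main tau phosphatase, stood at 220.3 to 266 TPM (WT) and 212.8 to 219.98 TPM (P213L), without overlap (log2 fold change -0.15 ± 0.10, SE; limma adjusted p = 0.827). Mark4, a tau kinase, and the scaffold Mapk8ip1 had 0.19 ± 0.20 and 0.08 ± 0.09 (SE), and 0.01 and 0.06 without that library.

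Cytolinkers and other axonal partners had 19 of 21 genes higher and the highest list median, 0.26, which was -0.02 without WT replicate 3. Sptbn4, the spectrin of axon initial segments, stood at 46.6 TPM in WT replicate 3 and 107 to 117 TPM in P213L (log2 fold change 0.44 ± 0.29, SE; 0.17 ± 0.13 without that library). Crmp1, a growth cone protein, had 0.24 ± 0.15 and its relative Dpysl2 had -0.11 ± 0.15 (SE), which were 0.12 and 0.0076 without it. Gap43, a growth cone protein of growing axons, stood at 3013 ± 432 TPM (WT) and 3119 ± 49.3 TPM (P213L), a log2 fold change of 0.06 ± 0.12, and the membrane protein Marcks had -0.09 ± 0.14 (SE). Without WT replicate 3 these were 0.15 and -0.03.

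Markers of cell types give the setting. All 12 pan-neuronal genes were tested, 6 were higher and 6 lower, and their summed level was 6369 to 6961 TPM in 3 WT samples, 5742 TPM in WT replicate 3 and 6369 to 6672 TPM in P213L. Snap25, a synaptic membrane protein of that list, stood at 318 to 388 TPM (WT) and 275 to 313 TPM (P213L). It was the 1 gene of that list lower in P213L without overlap, and 1 other gene was higher without overlap (beside 2.75 and 5.94% of all tested genes). Genes of immature neurons, among which Dcx is usually counted, were higher for 10 of 11 tested (median log2 fold change 0.21, and 0.17 without WT replicate 3), with a sum of 1043 to 1138 TPM (WT) and 1147 to 1280 TPM (P213L). The sums of the large projection neuron list, where neurofilaments are abundant, overlapped at 431 to 485 and 429 to 516 TPM. Astrocyte genes summed to 852 to 1290 and 991 to 1069 TPM, oligodendrocyte genes to 721 to 781 and 671 to 726 TPM, microglial genes to 315 to 379 and 302 to 314 TPM, and endothelial genes to 284 to 399.7 and 305 to 323 TPM. Meningeal genes summed to 95.7 to 176 and 168 to 232 TPM, striatal genes to 647 to 833 and 659.5 to 697 TPM, and choroid plexus genes to 5.52 to 1249 and 9.24 to 10.99 TPM. Erythroid genes summed to 903 TPM in WT replicate 3, 415 to 492 TPM in the other WT samples and 461 to 601 TPM in P213L. At an unadjusted p under 0.05 in limma, 2 of 11 immature neuron genes, 2 of 8 meningeal genes and 1 of 5 erythroid genes were higher in P213L, beside 2.36% of all tested genes. Lower in P213L at that level, beside 1.38% of all tested genes, were 5 of 11 oligodendrocyte genes and 2 of 9 microglial genes. So were 1 of 12 pan-neuronal genes, 1 of 9 astrocyte genes and 1 of 7 endothelial genes. These lists did not move as a whole. Of the oligodendrocyte genes 5 were higher and 6 lower, with a median log2 fold change of -0.02. The groups did not overlap for 1 higher and 5 lower genes of that list (beside 5.94 and 2.75% of all tested genes). Astrocyte genes were higher for 4 and lower for 5, and endothelial genes higher for 4 and lower for 3. All 9 microglial genes had a negative log2 fold change with all samples, and 1 of the 9 was positive without WT replicate 3. The highest microglial sum in WT, 379 TPM, was that of WT replicate 3. No listed marker of these types was at 0 in all samples, and their part in the levels of the 10 genes was not tested.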

How the data were processed

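The deposited values are TPM, per the file headers, with 1 value for each gene in each of the 7 samples and a total of 1000000 TPM in every column. The submitters' processing notes name HISAT2, HTSeq and mm10. Not given in the sources used here were versions, gene annotation, gene lengths and the strand setting. Libraries were strand-specific poly(A) preparations from TRIzol RNA, per the labels' protocols. Samples were grouped by title. The 17582 genes averaging 1 TPM or more entered the test, as log2(TPM + 0.5) with limma 3.58.1 in R 4.3.3 (mean-variance trend, two-sided, Benjamini-Hochberg, threshold 0.05). Fold changes are on that scale, which understates low genes. Ratios were compared by exact permutation over 35 splits. TPM keeps no read total: depth was estimated by multiplying TPM by exon-union length in GENCODE vM21 and dividing by the most frequent low value, and is approximate. Positions and sequences come from GENCODE vM21 (GRCm38). Each printed window is the one in the first gene with most bases identical, without gaps, to the second, set beside the closest window of that gene.

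Members and lists were chosen with earlier results of these data known. The rule named all 10 members, up to 2 genes per list and direction with the smallest p, 9 fixed genes, and the 3 genes most correlated with 5 members. A gene that this rule names and some sequences are not reported here. Snap25, Rbfox3, Hbb-bs, Malat1, Ttr and Gm11223 were named after their values were seen. On simulated data of 17582 genes with 200 changed, the fit recovered 16.2% of genes changed by 0.58 (log2), 50.6% by 1, 87.4% by 2 and 94.9% by 3, with 6.90 false calls per set. Those simulations gave every sample the same spread for a gene, pooled over both groups, so they held no far library like WT replicate 3. Changed genes were drawn at random from all tested genes, so the shares do not give the recovery for the 10 genes. Alternatives were other pseudocounts, filters, scalings, no trend, weighting of samples, blocking on the replicate number, and each sample left out. Median-of-ratios scaling without WT replicate 3 was chosen after seeing the data. Figures were drawn with matplotlib 3.10.9 in Python 3.11.15.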

Additional observations from a re-analysis of the deposited data

Results flagged for a closer look

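In the 4 WT samples, 16 measures (10 levels and 6 ratios) were searched for a sample whose gap to its nearest neighbour, as a share of the whole range, exceeded Dixon's 95% critical value, which chance does in about 1 of 20 groups. There were 4, all in WT replicate 3: Mapt at 608 TPM, Stmn1 at 3723 TPM, the Nefh to Nefl ratio at 0.0859 and the Map1b to Map2 ratio at 1.28. The P213L group, with 3 samples, was not examined in this way.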

How the results depend on the processing

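With each sample left out in turn, 0 genes and 0 of the 10 members passed in limma. The count of members without overlap ran from 1 to 4 (2 without WT replicate 3, 2 without P213L replicate 1, 4 without WT replicate 1). The share of all tested genes without overlap ran from 11.6 to 25% in those fits. The count of members was 2 with quantile normalization, where the share over all tested genes was not counted, so that count cannot be judged. With sample weights 3981 genes and 2 members passed. All other alternatives called 0 genes, and the unadjusted count was 1836 without a filter 361 with a filter at 5 TPM, 6969 with sample weights, 1523 with median-of-ratios scaling without WT replicate 3, and 266 to 1574 with 1 sample left out, against 657. Nefm turned to -0.034 with median-of-ratios scaling, -0.050 with sample weights, -0.0065 with the replicate block and that scaling, and -0.0055 with that scaling without WT replicate 3. Stmn1 turned to 0.037 with quantile normalization, 0.18 with sample weights and 0.15 with median-of-ratios scaling without WT replicate 3. Sample weights gave Map1b -0.10, Map2 -0.19 and Dcx -0.094, and median-of-ratios scaling without WT replicate 3 gave Map1b -0.037 and Map2 -0.13. With 1 sample left out, the fold changes ran from -0.0037 to 0.10 for Nefm, -0.091 to 0.024 for Nefh, -0.036 to 0.53 for Map1b, -0.13 to 0.26 for Map2 and -0.13 to 0.15 for Stmn1, and the Dcx to Mapt difference from -0.11 to 0.19. That difference was -0.066 with quantile normalization. The median of the doublecortin and stathmin relatives was -0.10 with median-of-ratios scaling. The cause of these changes was not tested. Samples of the same number deviated together at 0.13, 0.17 and -0.10. For P213L replicates 1 and 2 this was the highest value with any WT sample. P213L replicate 3 deviated more with WT replicate 1 (0.12). These few values cannot tell whether samples of the same number share more than the number. With the replicate block 0 genes passed (lowest limma adjusted p = 0.747), 500 reached an unadjusted p under 0.05, and no member changed its call. The ratios could not be called in that setting, because 3 pairs of samples allow no exact p under 0.05. Nefh had the fewest units of the 10 genes (1594 to 2080). Changes of 0.58 (log2) were seldom recovered in simulated data of this size, over randomly drawn genes and not these 10.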
